A study of Mus musculus with 2 samples.

Results

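The genes described here encode extracellular and cell-surface metalloproteinases and their inhibitors: 2 matrix metalloproteinases (Mmp9, Mmp25), 6 ADAM proteins (Adam8, Adam9, Adam10, Adam15, Adam17, Adam19) and 2 tissue inhibitors of metalloproteinases (Timp1, Timp2). They were chosen by symbol, as every probe set whose platform annotation names exactly 1 gene and that gene is a member. This gave 24 probe sets for 9 of the 10 genes, of 34958 single-gene probe sets for 18194 genes in all. Mmp25, the gene of a membrane-anchored leukocyte metalloproteinase, had no such probe set and was not analysed here. The cells were neutrophils of C57BL/6 mice, an inbred strain, sorted live from fresh bone marrow as Gr-1-high and CD48-negative in separate experiments. The 2 arrays, replicate 2 and replicate 1, each hold RNA of 1 experiment, and together they are a single group, for which the labels name no treatment, genetic change or control. The sources used here do not say how many mice went into a sample, or how old they were.

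Matrix metalloproteinases are zinc-dependent enzymes that cut collagens, gelatins and other extracellular proteins, and neutrophils store some of them in granules until they are released. ADAM proteins are mostly membrane-spanning relatives that carry a disintegrin domain, and several of them are sheddases, which cut the outer part of cytokines, receptors and adhesion molecules from the cell surface. TIMP proteins are small secreted inhibitors that block the active site of matrix metalloproteinases and, in part, of ADAM proteins.

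The deposited values are MAS5 signals, linear brightness values scaled so that both arrays have the same trimmed mean. The background limit of an array was the 95th percentile of the signal of 87 probe sets of smell and taste receptor genes, 131 on replicate 2 and 108 on replicate 1. Passing the limit on both arrays put a probe set above background, and 1 such probe set put its gene there. Levels are log2 signals of the brightest probe set of a gene, and differences are log2 signal of replicate 2 minus replicate 1. Binding strength differs between probe sets, so the level of a gene is not set against that of another gene. A difference compares 1 array with 1 array, so no replicate checks it and no p-value is given, and 2 arrays limit the precision of every level. In sorted bulk RNA, fewer cells of a type and less RNA per cell cannot be told apart. All 11 measured neutrophil markers, among them Ltf, Camp and S100a8, were above background. Markers of other marrow cells were above it in 18 of 79 list entries over 9 lists (22.8%), and 40.4% of all measured genes were. Shares per list ran from 11.1% to 44.4%. The erythroid and megakaryocyte list (4 of 9, 44.4%) and the monocyte list (3 of 7, 42.9%) exceeded the share of all genes.

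Of the 9 measured genes, 8 were above background: Mmp9, Adam8, Adam9, Adam10, Adam15, Adam17, Adam19 and Timp2. Over all 18194 genes the share was 40.4%. Of the 24 probe sets, 18 (75%) were above background, where the share over all single-gene probe sets was 35.5%. The other 6 probe sets were at or below the limit on both arrays. They were the 1 probe set of Timp1, 2 of 4 for Adam10, 2 of 4 for Adam15 and 1 of 6 for Timp2.

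**Figure D1:**
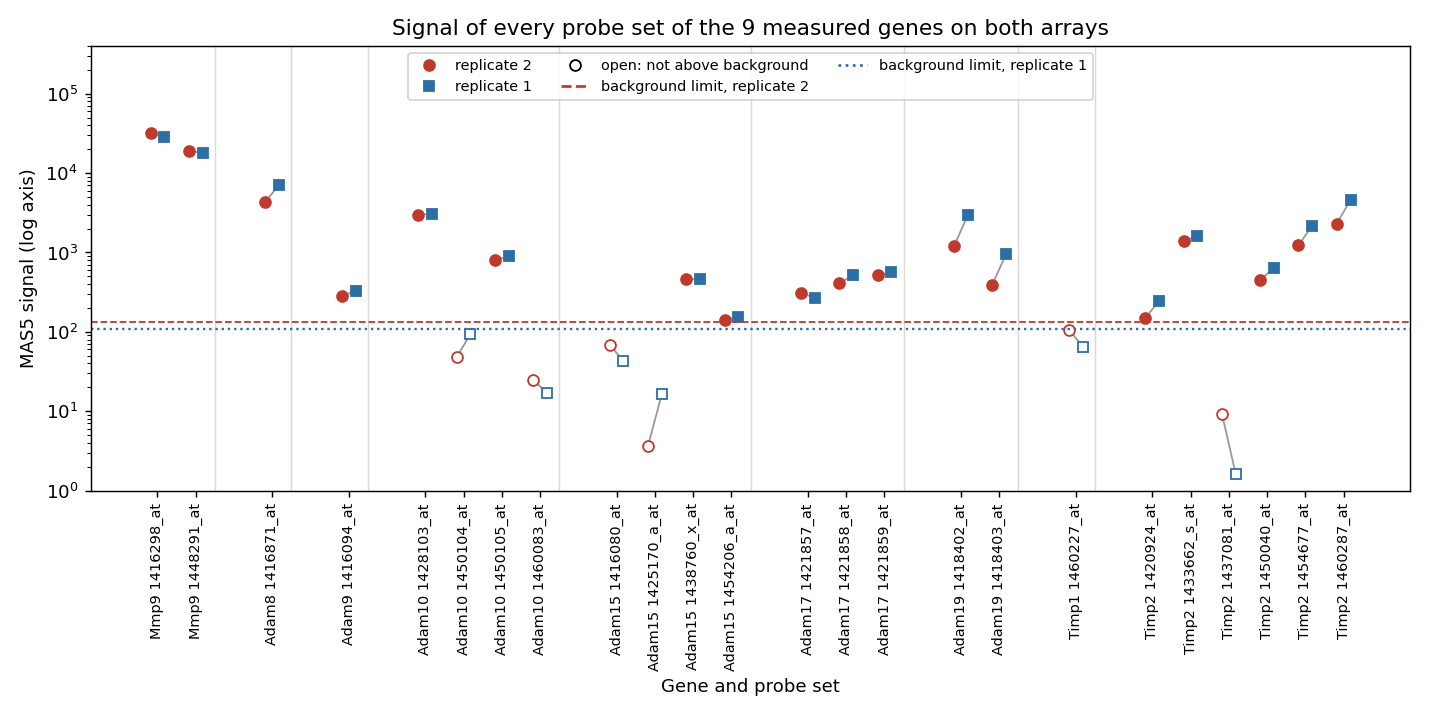
MAS5 signal (vertical log axis) of each of the 24 probe sets of the 9 measured genes, replicate 2 as circles and replicate 1 as squares, with the background limit of each array as a line (131 on replicate 2, 108 on replicate 1). Open symbols are the 6 probe sets not above background; both Adam19 probe sets and 5 of the 6 Timp2 probe sets are lower on replicate 2.

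Mmp9 encodes gelatinase B, the enzyme for which the gelatinase granules of neutrophils are named. Its signal was 32062 on replicate 2 and 28176 on replicate 1 at probe set 1416298_at, a level of 14.88 ± 0.13 (SD, n = 2). Probe set 1448291_at read 18888 on replicate 2 and 18136 on replicate 1. Both probe sets lay far above the limit on both arrays, and both were slightly higher on replicate 2, by 0.19 and 0.06 on the log2 scale. The difference of 0.19 was close to the middle of all genes above background, 60.7% of which had a lower value.

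Of the ADAM genes, Adam10 and Adam17 encode the main sheddases of blood cells. ADAM10 makes the first regulated cut of Notch receptors, and ADAM17, also called TACE, releases tumour necrosis factor. Adam10 had signals of 2979 on replicate 2 and 3077 on replicate 1 at probe set 1428103_at, a level of 11.56 ± 0.03 (SD, n = 2) and a difference of -0.05. Its probe set 1450105_at read 794 on replicate 2 and 896 on replicate 1, also above the limit. Probe sets 1450104_at, with 47.8 on replicate 2 and 93.7 on replicate 1, and 1460083_at, with 24.9 on replicate 2 and 17 on replicate 1, were not above background. The probe sets of Adam10 therefore disagreed on whether the gene was detected, and the call rests on 2 of them.

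Adam17 was above background at all 3 of its probe sets. The brightest, 1421859_at, read 518 on replicate 2 and 559 on replicate 1, a level of 9.07 ± 0.08 (SD, n = 2) and a difference of -0.11. Probe set 1421858_at read 408 on replicate 2 and 515 on replicate 1, and 1421857_at read 312 on replicate 2 and 266 on replicate 1. The 3 probe sets did not share a direction: 2 were lower and 1 was higher on replicate 2, with differences of -0.33 to 0.23.

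Adam9 and Adam15 encode widely expressed ADAM proteins. Adam9 had 1 probe set, which read 279 on replicate 2 and 331 on replicate 1, a level of 8.25 ± 0.18 (SD, n = 2). Adam15 read 462 on replicate 2 and 459 on replicate 1 at probe set 1438760_x_at, a level of 8.85 ± 0.01 (SD, n = 2), the smallest difference of the 8 genes at 0.01. The suffix _x_at marks probe sets with probes that can bind other transcripts as well. Its probe set 1454206_a_at, a suffix given when transcripts of the same gene share the probes, read 141 on replicate 2 and 154 on replicate 1, near the limit. Of the other 2 probe sets of Adam15, 1416080_at read 69.0 on replicate 2 and 42.5 on replicate 1, and 1425170_a_at read 3.65 on replicate 2 and 16.3 on replicate 1. Without probe sets ending in _x_at, _s_at or _a_at, Adam15 was not above background.

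Adam8 encodes a catalytically active ADAM protein of leukocytes, found on neutrophils and monocytes. Its only probe set, 1416871_at, read 4351 on replicate 2 and 7105 on replicate 1, a level of 12.44 ± 0.50 (SD, n = 2). The difference was -0.71, 1.63-fold higher on replicate 1, and 5.18% of all genes above background had a lower one.

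Adam19, which encodes meltrin beta, a protease able to shed neuregulins, had the widest gap between the experiments of the 8 genes. Probe set 1418402_at read 1200 on replicate 2 and 2981 on replicate 1, a level of 10.89 ± 0.93 (SD, n = 2). Probe set 1418403_at read 394 on replicate 2 and 955 on replicate 1. The differences were -1.31 and -1.28, so both probe sets were over 2-fold lower on replicate 2, and they differed from each other by only 0.03. Of all genes above background, 0.76% had a lower difference than Adam19.

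Timp2 encodes the inhibitor that, besides blocking active enzymes, takes part in activating the precursor of gelatinase A at the cell surface. Its brightest probe set, 1460287_at, read 2307 on replicate 2 and 4567 on replicate 1, a level of 11.66 ± 0.70 (SD, n = 2). Probe sets 1454677_at (1224 on replicate 2, 2184 on replicate 1) and 1450040_at (448 on replicate 2, 642 on replicate 1) read the same way. Probe set 1433662_s_at, whose suffix marks probes shared between transcripts, had the smallest gap, with 1376 on replicate 2 and 1632 on replicate 1. Probe set 1420924_at read 150 on replicate 2 and 246 on replicate 1, and was the dimmest of the 5 above background. All 5 were lower on replicate 2, with differences of -0.25 to -0.99, and none passed 2-fold. The remaining probe set, 1437081_at, was not above background, with 9.25 on replicate 2 and 1.63 on replicate 1.

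Timp1 encodes the inhibitor that binds the precursor of gelatinase B as well as active metalloproteinases. Its only probe set, 1460227_at, read 107 on replicate 2 and 65.2 on replicate 1, under the limits of 131 on replicate 2 and 108 on replicate 1. With only 1 probe set, a level of Timp1 was not detectable on these arrays, which does not show that its RNA was absent.

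Between the experiments, 6 of the 8 genes above background were lower on replicate 2, where 43.7% of all 7354 genes above background were lower. Their median difference was -0.18, and that of all genes above background was 0.07. Mmp9, Adam8, Adam10, Adam19 and Timp2 were among the 2451 brightest genes above background. Of those 2451, 53.4% were lower, with a median of -0.03, and 72 were over 2-fold lower on replicate 2. Adam19 was the 1 gene of the 8 past 2-fold, where 5.4% of all genes above background were past 2-fold in either direction with 1.97% over 2-fold lower and 3.43% over 2-fold higher on replicate 2. The middle 95% of all genes above background spanned -0.94 to 1.08, and that of the 2451 brightest of them -1.06 to 0.86. Adam19 lay below both ranges. Timp2, at -0.99, lay below the range of all genes but inside that of the 2451 brightest, to which it belongs, and Adam8 lay inside both. Under other scalings the direction of the small differences turned: Adam15 was lower on replicate 2 with median scaling, Adam15 and Mmp9 were lower and Adam10 higher with quantile normalization, and Adam15 and Mmp9 were lower when arrays were scaled on their hybridisation controls, which put the median of all genes at -0.65. Relative to the median of all genes, Adam19 was at -1.38, Timp2 at -1.06, Adam8 at -0.78 and Mmp9 at 0.11 under the deposited scaling, median scaling and the hybridisation controls, which differ by 1 factor per array.

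**Figure D2:**
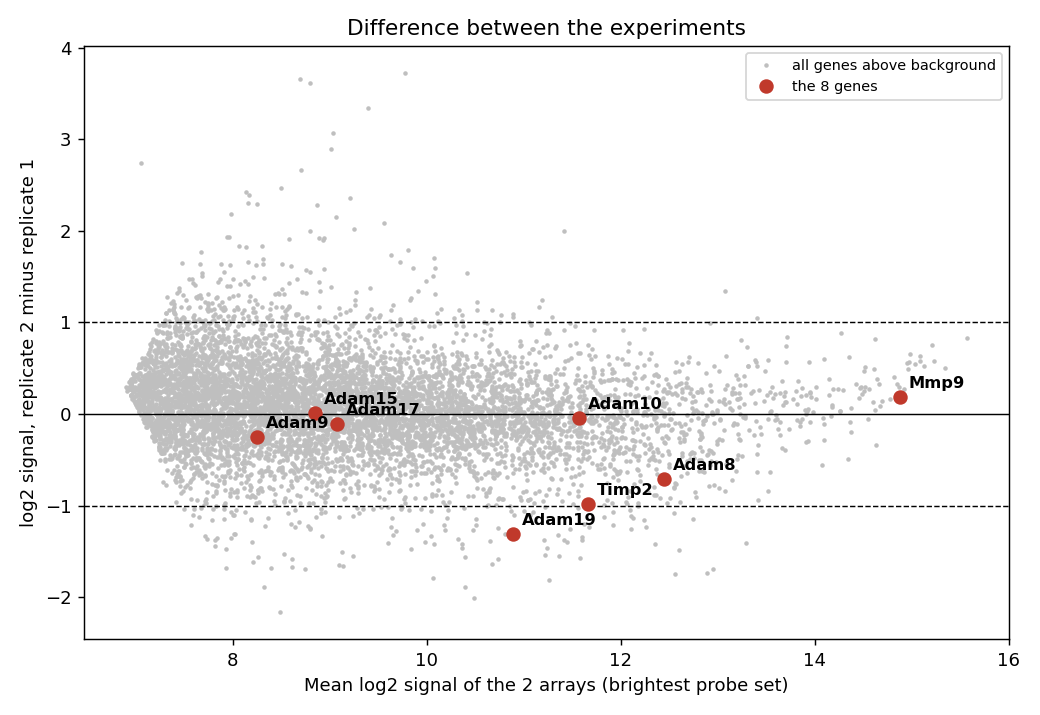
Difference between the arrays (log2 signal of replicate 2 minus replicate 1, vertical axis) against the mean log2 signal (horizontal axis) for 7354 genes above background, with the 8 described genes as large labelled points and dashed lines at a 2-fold difference. Adam19 at -1.31 lies past the lower line, Timp2 at -0.99 just inside it, and Mmp9 at 0.19 near 0.

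Other measured facts moved between the same arrays. The summed signal of 11 measured proliferation genes was 10167 on replicate 2 and 1508 on replicate 1, and all 7 of them above background were over 2-fold higher on replicate 2. The summed signal of 7 measured monocyte markers was 2723 on replicate 2 and 5848 on replicate 1, with 3 of the 7 above background. Most of that sum was Csf1r, the receptor of the growth factor M-CSF, which read 1928 on replicate 2 and 5020 on replicate 1. F13a1 read 231 on replicate 2 and 264 on replicate 1. Ccr2, a chemokine receptor of monocytes, read 220 on replicate 2 and 157 on replicate 1, above background at 1 of 4 probe sets. Cx3cr1 read 104 on replicate 2, under the limit, and 165 on replicate 1, past it. The summed signal of 10 measured macrophage markers was 970 on replicate 2 and 1518 on replicate 1, with 3 above background, all lower on replicate 2. Adgre1 read 217 on replicate 2 and 627 on replicate 1, a difference of -1.53. C1qb differed by -0.65 and Vcam1 by -0.03. The neutrophil markers summed to 333255 on replicate 2 and 228159 on replicate 1, and 9 of the 11 were higher on replicate 2, with a median of 0.56. The other 2 were Cxcr2, a chemokine receptor gene of mature neutrophils (3224 on replicate 2, 7212 on replicate 1), and Csf3r, the G-CSF receptor gene (4670 on replicate 2, 7951 on replicate 1). The stroma and endothelium list had 2 of 12 genes above background (Col1a2 and Kdr) and summed to 974 on replicate 2 and 1143 on replicate 1. Col1a1, a collagen gene of that list, was below the limit on both arrays with 93.7 on replicate 2 and 94.0 on replicate 1. In the same list, 2 genes passed the limit on replicate 1 alone and 0 on replicate 2 alone. Cxcl12 read 90.1 on replicate 2 and 202 on replicate 1, and Lepr read 98.9 on replicate 2 and 114 on replicate 1. The stem and progenitor list summed to 1196 on replicate 2 and 733 on replicate 1. Kit, its 1 gene above background, read 547 on replicate 2 and 244 on replicate 1. The B cell list summed to 930 on replicate 2 and 500 on replicate 1. The dendritic cell list summed to 601 on replicate 2 and 977 on replicate 1. List sum ratios, replicate 2 over replicate 1, were 1.11 (T and NK), 1.07 (erythroid and megakaryocyte) and 0.94 (eosinophil, basophil and mast cell). The ratio of the 3′ to the 5′ control probe set, a sign of RNA quality, was 1.25 on replicate 2 and 1.10 on replicate 1 for Actb, and 0.783 on replicate 2 and 0.762 on replicate 1 for Gapdh. The part of these in the differences of Adam19, Timp2 and Adam8 was not tested.

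The arrays read transcripts and hold no measurement at promoters. The sequences upstream of Adam8, Adam19 and Timp2 are printed because these 3 genes had the lowest differences of the 8. RefSeq windows (GRCm38.p6) were found for 8 of the 10 genes. Each run is the 250 bases before an annotated transcript start, 5′ to 3′ on the strand of the gene, with matches to any searched motif in capitals on either strand: AP-1 (TGANTCA), C/EBP (TTGCNNAA), an ETS core (GAGGAA), Sp1 (GGGCGG) and a TATA box (TATAAA). Adam19 has 3 annotated starts, and the windows of the first and of the next one downstream are shown, since the other window held no match.
Adam8, chr7:139992563-139992812, minus strand: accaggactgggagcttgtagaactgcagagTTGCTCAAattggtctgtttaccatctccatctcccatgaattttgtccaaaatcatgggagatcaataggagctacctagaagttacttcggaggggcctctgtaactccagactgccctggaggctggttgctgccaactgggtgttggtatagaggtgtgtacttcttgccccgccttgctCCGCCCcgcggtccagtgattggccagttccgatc
Adam19, chr11:46054252-46054501, plus strand: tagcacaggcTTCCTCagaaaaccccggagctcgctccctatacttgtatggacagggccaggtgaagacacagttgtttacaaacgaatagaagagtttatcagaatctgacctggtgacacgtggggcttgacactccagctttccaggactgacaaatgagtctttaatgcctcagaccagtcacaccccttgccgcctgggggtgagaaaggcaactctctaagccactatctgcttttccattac
Adam19, chr11:46055734-46055983, plus strand: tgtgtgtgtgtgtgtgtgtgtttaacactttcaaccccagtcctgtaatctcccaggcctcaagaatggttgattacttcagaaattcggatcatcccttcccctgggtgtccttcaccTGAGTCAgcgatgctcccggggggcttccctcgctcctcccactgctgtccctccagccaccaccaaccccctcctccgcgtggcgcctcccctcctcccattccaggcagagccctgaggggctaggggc
Timp2, chr11:118355412-118355661, minus strand: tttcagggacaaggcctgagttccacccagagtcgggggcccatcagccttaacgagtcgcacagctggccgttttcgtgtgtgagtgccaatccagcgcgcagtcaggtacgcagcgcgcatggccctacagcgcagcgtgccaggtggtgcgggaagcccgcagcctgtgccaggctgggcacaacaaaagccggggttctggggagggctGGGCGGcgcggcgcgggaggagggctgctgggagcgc
The Adam8 window held 1 C/EBP match and 1 Sp1 match, the first Adam19 window 1 ETS match, the second Adam19 window 1 AP-1 match, and the Timp2 window 1 Sp1 match. Adam8 and Timp2 thus both held the Sp1 letters, and no motif was in the windows of all 3 genes. Of 32851 mouse windows of the same length, 6.75% held the AP-1 letters, 9.56% the C/EBP letters, 23.3% the ETS letters, 32.7% the Sp1 letters and 12.4% the TATA letters. A match is a run of letters only, and a missing match says only that these letters are not in the window. The Sp1 letters were also in the windows of Mmp25, Adam10 (3 matches), Adam15, Adam17 and Timp1.

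The rest of the same gene families was mostly not above background. Of the 17 other matrix metalloproteinase genes measured, 2 were above it. Mmp8, which encodes the collagenase of neutrophil granules, read 33900 on replicate 2 and 28163 on replicate 1, a level of 14.92 ± 0.19 (SD, n = 2). Mmp24, a membrane-type enzyme gene, read 179 on replicate 2 and 149 on replicate 1, near the limits, at 1 of its 3 probe sets. Mmp2, which encodes gelatinase A, was under the limit on replicate 2 with 72.9 and just past it on replicate 1 with 108. Mmp14, whose product activates gelatinase A together with TIMP-2, read 54.0 on replicate 2 and 85.7 on replicate 1 and was not above background at any of 3 probe sets.

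Of 21 other ADAM genes measured, 3 were above background. Adam4 read 167 on replicate 2 and 232 on replicate 1, Adam11 read 140 on replicate 2 and 109 on replicate 1, and Adam12 read 150 on replicate 2 and 115 on replicate 1. Adam11 and Adam12 lay close to the limits. Of 15 ADAMTS genes, which encode secreted relatives with thrombospondin repeats, 2 were above background, Adamts10 (245 on replicate 2, 212 on replicate 1) and Adamts16 (342 on replicate 2, 291 on replicate 1). In all, 8 of 59 other family genes (13.6%) were above background, and 40.4% of all measured genes were. Of 33 measured genes typical of other organs, 4 (12.1%) were above background by the same call. Of the 8 family genes, 7 were higher and 1 lower on replicate 2, with a median of 0.27. Of all genes above background 43.7% were lower, with a median of 0.07. Of the 2452 dimmest of them 34.3% were lower, with a median of 0.18. Of the 8 family genes, 6 were higher with quantile normalization and 0 with scaling on the hybridisation controls, where their median was -0.45. The background limit itself was 0.29 higher on replicate 2 on the log2 scale, and genes of every list had to pass it on both arrays. Its part in the direction of these 8 genes was not tested.

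Among the other inhibitors, 1 of 6 measured genes was above background. This was Reck, which encodes a membrane-anchored inhibitor of several matrix metalloproteinases, with 2346 on replicate 2 and 1875 on replicate 1, a level of 11.03 ± 0.23 (SD, n = 2). Timp3, the gene of the inhibitor most active against ADAM17, read 123 on replicate 2 and 66.9 on replicate 1 and was not above background at any of 4 probe sets. Timp4 (74.5 on replicate 2, 44.1 on replicate 1) and A2m, the gene of the plasma protease inhibitor alpha-2-macroglobulin (40.2 on replicate 2, 87.6 on replicate 1), were not above background either.

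**Figure D3:**
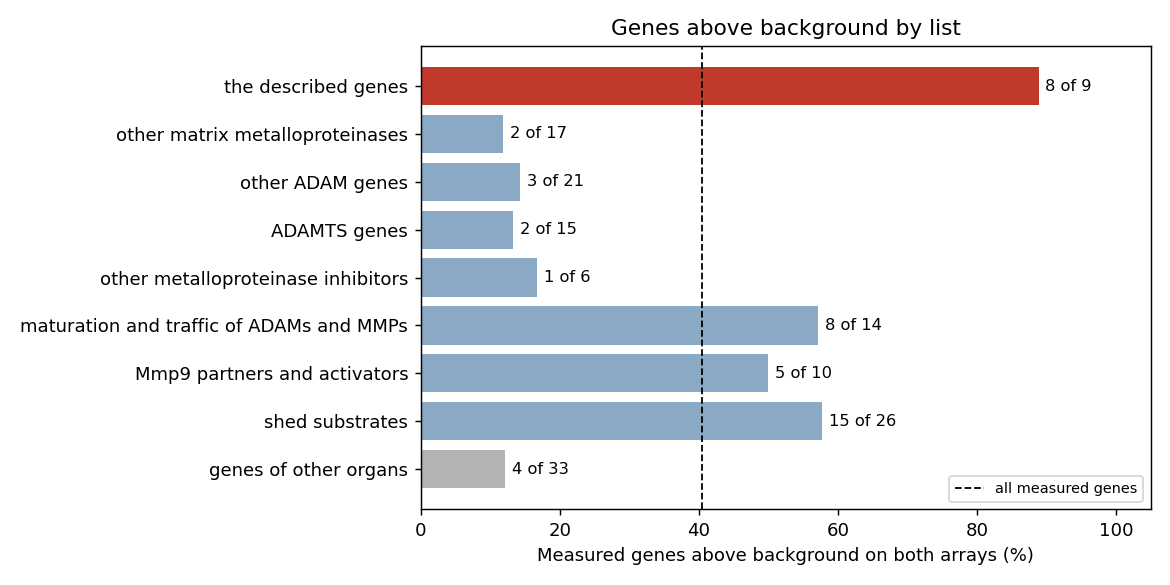
Share of measured genes above background on both arrays (horizontal axis, percent) for the described genes, the 7 related lists and genes of other organs, with counts beside the bars and the share over all measured genes as a dashed line. The described genes stand at 8 of 9, the other family genes at 11.8% to 16.7%, genes of other organs at 12.1%, and all measured genes at 40.4%.

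Genes whose products mature or carry these enzymes were above background in 8 of 14 cases (57.1%), and 40.4% of all measured genes were. Rhbdf2 encodes iRhom2, which takes ADAM17 to the surface of immune cells, and read 343 on replicate 2 and 514 on replicate 1, a difference of -0.58. Its relative Rhbdf1 read 150 on replicate 2 and 179 on replicate 1. Frmd8, which encodes a protein that stabilises the complex of iRhom and ADAM17, read 608 on replicate 2 and 778 on replicate 1. Furin, the gene of a convertase that removes the inhibitory propeptide of many ADAM proteins, read 540 on replicate 2 and 604 on replicate 1, and the related convertase gene Pcsk7 read 369 on replicate 2 and 400 on replicate 1. Of the tetraspanin genes whose products escort ADAM10, Tspan14 (1402 on replicate 2, 1254 on replicate 1) and Tspan5 (258 on replicate 2, 250 on replicate 1) were above background. Tspan15 and Tspan17 passed the limit on replicate 2 alone. Pdia6, a protein disulphide isomerase gene, read 316 on replicate 2 and 328 on replicate 1. Of these 8 genes 6 were lower on replicate 2 with a median of -0.14 (7 with median scaling or quantile normalization, 8 on the hybridisation controls), and none was past 2-fold. Of all genes above background, 43.7% were lower on replicate 2, 55.5% with median scaling, 45.3% with quantile normalization and 91.8% on the hybridisation controls.

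Of 10 genes for partners and activators of gelatinase B, 5 (50%) were above background, near the 40.4% of all measured genes. Lcn2 encodes lipocalin 2, whose human form binds the enzyme covalently, and read 42806 on replicate 2 and 29701 on replicate 1. Cd44, the hyaluronan receptor that holds the enzyme at the cell surface, read 12905 on replicate 2 and 14465 on replicate 1. Plaur, the urokinase receptor gene, read 4760 on replicate 2 and 4338 on replicate 1. Plau, the gene of urokinase, read 359 on replicate 2 and 197 on replicate 1 and had the largest difference of the 5 genes above background at 0.87. Lrp1, the gene of an endocytic receptor that clears the enzyme, read 135 on replicate 2 and 125 on replicate 1, near the limits. The serine protease genes Elane (39.2 on replicate 2, 57.7 on replicate 1), Prtn3 (28.1 on replicate 2, 40.7 on replicate 1) and Ctsg (2.76 on replicate 2, 10.5 on replicate 1) were not above background.

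Of 26 measured genes whose products are known to be shed by ADAM proteins, 15 (57.7%) were above background. Of these 15, 12 were lower on replicate 2, with a median of -0.27. Of all genes above background 43.7% were lower, and of the 2451 brightest 53.4% were lower, with a median of -0.03. With median scaling 14 of the 15 were lower, beside 55.5% of all genes, and on the hybridisation controls 15 of the 15, beside 91.8%. Of the 15, Csf1r was the 1 gene past 2-fold, at -1.38 for its brightest probe set. With the median over its 3 probe sets, Csf1r was not past 2-fold. Selplg, the gene of the selectin ligand PSGL-1, read 2747 on replicate 2 and 5408 on replicate 1, a difference of -0.98. Il1r2, the gene of the interleukin 1 decoy receptor, read 4075 on replicate 2 and 7991 on replicate 1, a difference of -0.97. The tumour necrosis factor receptor gene Tnfrsf1b (343 on replicate 2, 629 on replicate 1), the interleukin 6 receptor gene Il6ra (908 on replicate 2, 1644 on replicate 1) and Notch2 (2257 on replicate 2, 4039 on replicate 1) differed by -0.87, -0.86 and -0.84.

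Other substrate genes differed less. Tnf, the cytokine for which ADAM17 was first named, read 244 on replicate 2 and 309 on replicate 1, a difference of -0.34. Tnfrsf1a was higher on replicate 2, with 2233 on replicate 2 and 1941 on replicate 1. Notch1 read 1047 on replicate 2 and 1023 on replicate 1, and App, the amyloid precursor gene, read 5648 on replicate 2 and 6795 on replicate 1. Cxcl16, Tgfa, Prnp, Vcam1 and Cd44 made up the rest of the 15, with differences of -0.16 to 0.10. With median scaling, Il1r2, Selplg and Tnfrsf1b also passed 2-fold, all lower on replicate 2. Summed signals of the marker lists above moved between the same arrays, and their part in the differences of the substrate genes was not tested.

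**Figure D4:**
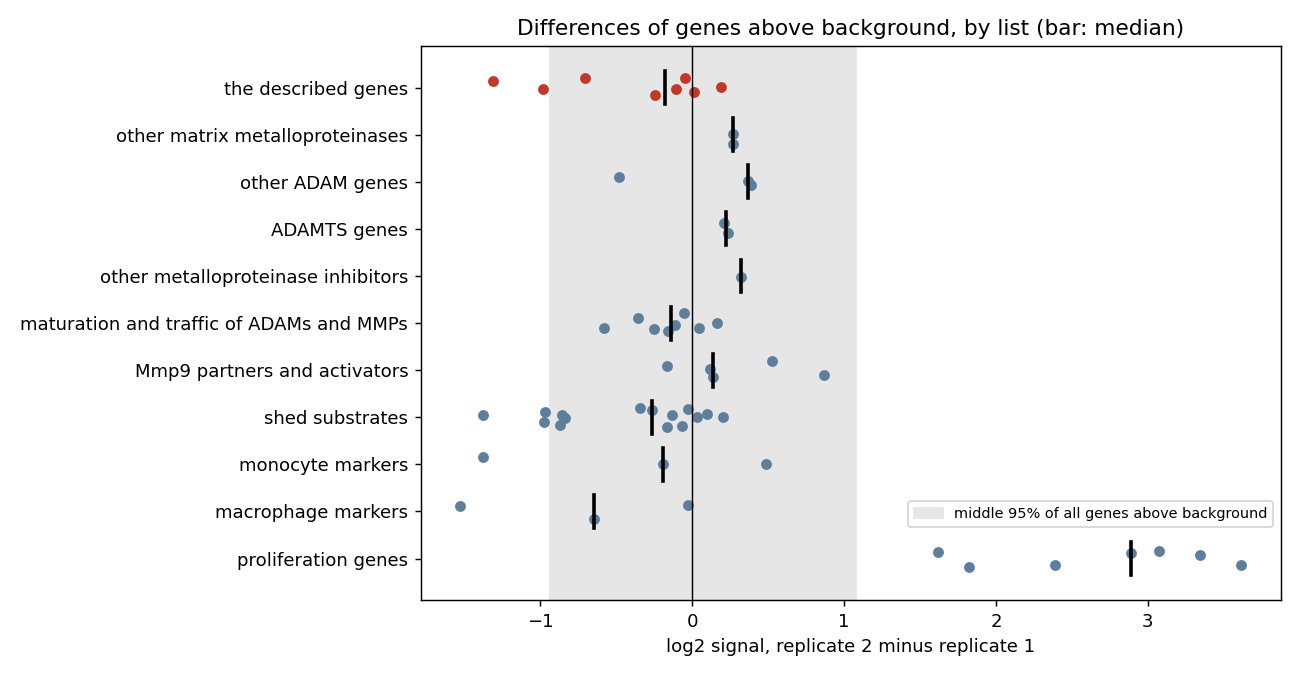
Difference between the arrays (log2 signal of replicate 2 minus replicate 1, horizontal axis) for each gene above background (points) of the described genes, the related lists and 3 lists for comparison, with the median of each list as a bar and the middle 95% of all genes above background, -0.94 to 1.08, shaded. The median of the described genes is -0.18, that of the shed substrates -0.27 and that of the proliferation genes 2.89.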

How the data were processed

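RNA of neutrophils sorted from mouse bone marrow in 2 experiments was measured on 1 expression array each. The deposited values are linear signal intensity values of 45101 probe sets per array. The authors used MAS5, per the submitters' processing notes; the sources used here give neither version nor settings. Leaving out the top and bottom 2% of probe sets, the mean was 250.0 on either array. The table holds no detection calls, so signal over background limits what can be called, and 2 arrays limit the precision.

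GEO's platform annotation gave 34958 probe sets 1 gene and 932 several, and 9211 were unnamed here. Calls against the background limit, log2 signals (floored at a signal of 1) and differences were computed with Python 3.11.15 and pandas 2.3.3. The brightest probe set, by mean log2 signal, stands for a gene. A difference was counted when past 2-fold. The computation was run on simulated arrays with known differences and the same spread at all levels, which checks the code and not the results. The arrays form 1 group, so no test was made. Named genes are all members, every gene above background of the 7 related lists, and any past 2-fold; other genes in the text were chosen after their values were seen. The members and the lists were chosen with earlier results of these data known. The alternatives were other background limits, 3 other scalings, a median over probe sets, fewer probe sets, 32 added to the signal, no filter and each array alone. Promoter windows came from RefSeq tables (GRCm38.p6).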

Additional observations from a re-analysis of the deposited data

Results flagged for a closer look

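Probe set 1443378_s_at, which the annotation gives to both Adam1a and Mapkapk5, was above background on both arrays, reading 181 on replicate 2 and 271 on replicate 1. It drew attention because probe sets with several genes are outside the comparisons above, and its signal cannot be given to either gene. The other 3 probe sets shared by these genes were not above background, at 102 to 117 on replicate 2 and 71.9 to 99.1 on replicate 1.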

How the results depend on the processing

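The count of 8 described genes above background was 7 without probe sets ending in _x_at, _s_at or _a_at, which lost Adam15, and 8 under the other background limits, with quantile normalization and on each array alone. The other scalings move the limit with the array, and the median over probe sets does not enter the call, so they cannot change these counts. The count of related genes above background, 35 of 108, ranged from 37 to 38 on single arrays and from 27 to 36 otherwise. The count of described genes past 2-fold was 1 (Adam19) and became 2 with median scaling (Timp2 added) and 3 with scaling to the hybridisation controls (Adam8 also added). These scalings moved the median of all genes by -0.13 and -0.72 on the log2 scale, which is how they act on every gene. Related genes past 2-fold, 1 as reported (Csf1r), were 4 with median scaling and 10 with scaling to the hybridisation controls. With the median over probe sets they were 5 (3 higher and 2 lower on replicate 2), and Csf1r was not among them. Those 5 were Adam12, Adamts16, Lrp1, Mmp24 and Pdia6. Without a filter they were 34 (17 higher and 17 lower). Without the filter, 27.1% of all genes were past 2-fold, against 5.4% of those above background. Genes over 2-fold higher and lower on replicate 2 numbered 252 and 145 as reported, 163 and 235 with median scaling, 109 and 129 with the limit from genes of other organs, and 33 and 1555 with the hybridisation controls. With the median over probe sets, the difference of Timp2 was -0.47 and that of Adam10 was -0.57, both including probe sets below background. Mmp9 was at -0.54 with the hybridisation controls and at -0.32 relative to the median of all genes with quantile normalization. No paired analysis was possible because both arrays belong to 1 group. Signal near the background limit cannot tell a low transcript level from none.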
